A study of Mus musculus with 12 samples.

Results

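The effect of a Runx1 mutation was measured in mouse blood stem and progenitor cells as a single main effect, over cells with and without the microRNA miR-146a. All 12 libraries of the series entered this comparison, 6 with the mutation and 6 without it, chosen by the genotype that a deposited table gives for each library. Of 24421 gene symbols with counts, 12744 passed a filter on low counts and were tested.

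The cells were GFP-positive LSK cells (lineage-negative, Kit-positive, Sca-1-positive), a bone marrow gate that holds stem cells and early multipotent progenitors. They were sorted from secondary recipients, mice that received marrow cells passed on from earlier recipients of engrafted donor cells. The mutant libraries were 3 of genotype miR-146aKO/Runx1S291fsX300 (miR146aKO_Runx1mut here: A001, A031 and A051) and 3 of genotype Runx1S291fsX300 (Runx1mut: A021, A042 and A058). The libraries without the mutation were 3 of genotype miR-146aKO (miR146aKO: A047, A150 and A151) and 3 with miR-146a and Runx1 both wildtype (wildtype: A015, A040 and A053). The titles of the last 2 genotypes hold the word Empty, whose meaning is not given, and the way in which mutant Runx1 was brought into the cells is not given either. Being sorted for GFP and being recovered after secondary transfer is common to all 4 genotypes. The labels give no age, sex or number of recipients. They leave unsaid whether each library is its own animal, and p-values therefore measure the spread between these libraries, which may be technical.

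RUNX1 is a transcription factor that binds DNA through its Runt domain together with its partner CBFB. It is required for the formation of blood stem cells in the embryo, and in adult marrow it is known for its part in megakaryocyte maturation, lymphoid development and the balance of granulocyte and stem cell programmes. Frameshift mutations that remove the carboxy-terminal activation region and leave the Runt domain occur in human myelodysplastic syndrome and acute myeloid leukaemia. miR-146a restrains innate immune signalling by repressing Traf6 and Irak1.

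Few genes changed by the test over all libraries. Ablim1 and B3gnt5 fell and Clec4b2 rose in mutant libraries, which is 3 of 12744 genes or 0.0235% (quasi-likelihood test of edgeR with miR-146a status as covariate, Benjamini-Hochberg adjusted p under 0.05). The single gene that rose is 0.00785% of those tested and the pair that fell 0.0157%. In the same model the loss of miR-146a had 5 called genes (0.0392%). At an unadjusted p under 0.05 there were 1255 genes (9.85%), with 632 higher and 623 lower in mutant libraries. Genes of lymphoid priming and of the interferon response were mostly on the lower side, and genes of neutrophils, megakaryocytes, mast cells and the cell cycle were mostly on the higher side, without any member of these lists being called.

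Because the mutation concerns a factor that binds DNA, 1 start region of each of the 3 called genes is shown, from RefSeq on GRCm38.p6. Each runs from 250 bases before to 50 bases after a transcription start and is printed 5′ to 3′ on the gene's strand. Capitals mark the core RUNX motif, searched as TGTGGT and its reverse complement ACCACA. Of 7 windows for these genes (5 for Ablim1, 1 each for B3gnt5 and Clec4b2) 1 held it, an Ablim1 window on the minus strand (chr19:57118975-57119274) with the motif starting at -218 relative to the start. Of the Ablim1 windows only this one, at a start inside the gene, is printed. The others held no motif, including the one at the gene's annotated start (chr19:57314870-57315169). The B3gnt5 window lies at chr16:19759984-19760283 on the plus strand and the Clec4b2 window at chr6:123172773-123173072 on the plus strand.
Ablim1: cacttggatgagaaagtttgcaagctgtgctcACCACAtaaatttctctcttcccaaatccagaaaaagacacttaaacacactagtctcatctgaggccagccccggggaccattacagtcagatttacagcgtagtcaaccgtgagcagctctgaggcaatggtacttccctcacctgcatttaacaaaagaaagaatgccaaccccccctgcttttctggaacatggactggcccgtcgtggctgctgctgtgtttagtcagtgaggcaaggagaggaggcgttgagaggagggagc
B3gnt5: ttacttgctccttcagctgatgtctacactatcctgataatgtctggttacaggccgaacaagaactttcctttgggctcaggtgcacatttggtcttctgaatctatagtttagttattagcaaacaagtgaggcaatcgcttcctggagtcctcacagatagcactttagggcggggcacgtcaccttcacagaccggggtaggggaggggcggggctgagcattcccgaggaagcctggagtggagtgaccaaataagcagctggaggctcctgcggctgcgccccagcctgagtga
Clec4b2: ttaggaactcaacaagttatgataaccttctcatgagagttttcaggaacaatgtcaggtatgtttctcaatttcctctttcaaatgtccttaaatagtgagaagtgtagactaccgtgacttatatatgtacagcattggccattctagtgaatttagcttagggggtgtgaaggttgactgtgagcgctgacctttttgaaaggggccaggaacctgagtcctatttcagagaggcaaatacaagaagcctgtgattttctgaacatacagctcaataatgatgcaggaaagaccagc
Of the 12744 tested genes 9727 had a window, and the motif was present in 13.3% of these 12349 windows. The motif was present in 5 of 42 windows (11.9%) for genes with all 6 mutant libraries above the other 6, and in 4 of 46 windows (8.7%) for genes with all 6 below. These matches are letters in a window of 300 bases and no binding was measured.

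The altered genes were examined first. Runx1 (chromosome 16, 92601466 to 92826149, GRCm38) had 120.2 to 609 CPM (CPM is each gene's count scaled by the library's total with TMM factors, median 229) in mutant libraries and 98.3 to 359.5 CPM (median 203) in libraries without the mutation, and the groups overlapped. Its log2 difference was 0.44 (SE 0.30, edgeR adjusted p = 0.663). Each SE given with a log2 difference is its absolute value divided by the square root of the F of the edgeR test. It was not estimated separately and gives no interval, least of all for genes at few counts. A count per gene cannot show the frameshift or tell an introduced copy from the cell's own gene. Cbfb, the partner of RUNX1, averaged 116 ± 22.9 CPM in mutant and 138 ± 62.1 CPM in other libraries (SD, n = 6 each, edgeR adjusted p = 0.871). Mir146 (chromosome 11, 43374397 to 43374461) had 14 counts in A031, which is labelled as lacking miR-146a, and 0 counts in the other 11 libraries, including the 6 labelled as having it. A031 therefore goes against its label in this one measure, and the counts of 0 check no label.

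Total counts ran from 3540043 to 7026393 per library, with the miR146aKO libraries the shallowest at 3540043 to 4353971. The gate's markers were detected in every library at widely differing levels. Kit had 101 to 711 CPM (median 171) in mutant and 24.6 to 436 CPM (median 139) in other libraries. Ly6a, which encodes Sca-1, had 12.1 to 222 CPM (median 70.7) in mutant and 46.0 to 1019 CPM (median 361) in other libraries. Neither was called (edgeR adjusted p = 0.599 for Kit and 0.517 for Ly6a). Markers of mature cells were present although the gate removes lineage-positive cells. The mean log2 CPM of B lineage genes was 0.71 to 3.22 in miR146aKO_Runx1mut, 0.13 to 3.44 in Runx1mut, 4.95 to 8.05 in miR146aKO and 0.38 to 2.41 in wildtype. Monocyte and macrophage genes were at 1.73 to 7.47 in mutant and 1.80 to 8.12 in other libraries, and erythroid genes at 0.02 to 5.34 in mutant and 0.80 to 4.82 in other libraries. These 2 lists were high in A031, A051, A150 and A151, while A001 was at 5.47 for monocyte and macrophage genes and at 0.02 for erythroid genes. The part of these lists in the results was not tested. In bulk libraries, fewer cells of a type and less RNA per cell cannot be told apart. Summed Y-linked CPM also differed, with 13.9 to 213.9 in mutant libraries, 100.3 to 237 in miR146aKO and 0.555 to 31.2 in wildtype.

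Ablim1 encodes an actin-binding LIM protein of the cytoskeleton (chromosome 19, 57032733 to 57314919). It had 19.8, 6.22 and 41.9 CPM in miR146aKO_Runx1mut and 7.09, 6.97 and 12.3 CPM in Runx1mut, against 220.0, 232 and 339.8 CPM in miR146aKO and 55.1, 46.4 and 82.9 CPM in wildtype. All 6 mutant libraries were below all 6 others, and the miR146aKO libraries were the highest. The log2 fold change of Ablim1 was -3.18 (SE 0.43, edgeR adjusted p = 0.0361). Its level dropped by 3.55 on that scale where miR-146a was lost and by 2.80 where it was intact, neither of which was called alone (adjusted p = 0.0537 and 0.361). It remained called in 5 of 12 fits that left out 1 library each, with edgeR adjusted p between 0.00998 and 0.0768, while its log2 fold change stayed between -3.60 and -2.88 over all 24 alternatives. A gene on the other strand, 4930449E18Rik, overlaps it, and these libraries do not keep strand.

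B3gnt5 encodes the enzyme that starts the lacto-series of glycosphingolipids at the cell surface (chromosome 16, 19760208 to 19772753). It had 19.6, 11.02 and 7.27 CPM in miR146aKO_Runx1mut and 3.12, 1.28 and 2.74 CPM in Runx1mut. In libraries without the mutation it had 81.5, 60.2 and 79.1 CPM in miR146aKO and 29.8, 57.5 and 42.4 CPM in wildtype. Again the groups did not overlap, and here the Runx1mut libraries were the lowest of the 12. The log2 fold change of B3gnt5 was -3.34 (SE 0.49, edgeR adjusted p = 0.0395), and 2 of the 12 fits without 1 library called it (adjusted p 0.0274 to 0.140).

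Clec4b2 encodes a C-type lectin receptor of the dectin-2 family, a group carried by myeloid cells (chromosome 6, 123172893 to 123204671). It had 6.03, 6.40 and 6.06 CPM in miR146aKO_Runx1mut and 68.8, 4.55 and 34.4 CPM in Runx1mut, against at most 0.243 CPM in miR146aKO and 0.142 CPM in wildtype. Clec4b2 rose with 814 counts over the 6 mutant libraries and 2 counts over the 6 others, a ratio of 347 after scaling for library size (exact 95% counting interval 95.7 to 2869, which covers counting error only). A021 held more of these counts than any other library, and without it the ratio was 175 (interval 48.1 to 1451). Its edgeR adjusted p was 0.0441, and it was called in 1 of 12 fits without 1 library (adjusted p 0.0369 to 0.240). With A031 and A042 both left out, all 3 of these genes were called (adjusted p 0.0161 for Ablim1 and Clec4b2 and 0.0344 for B3gnt5). This pair was chosen after seeing the data, here and wherever it is named below.

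**Figure D1:**
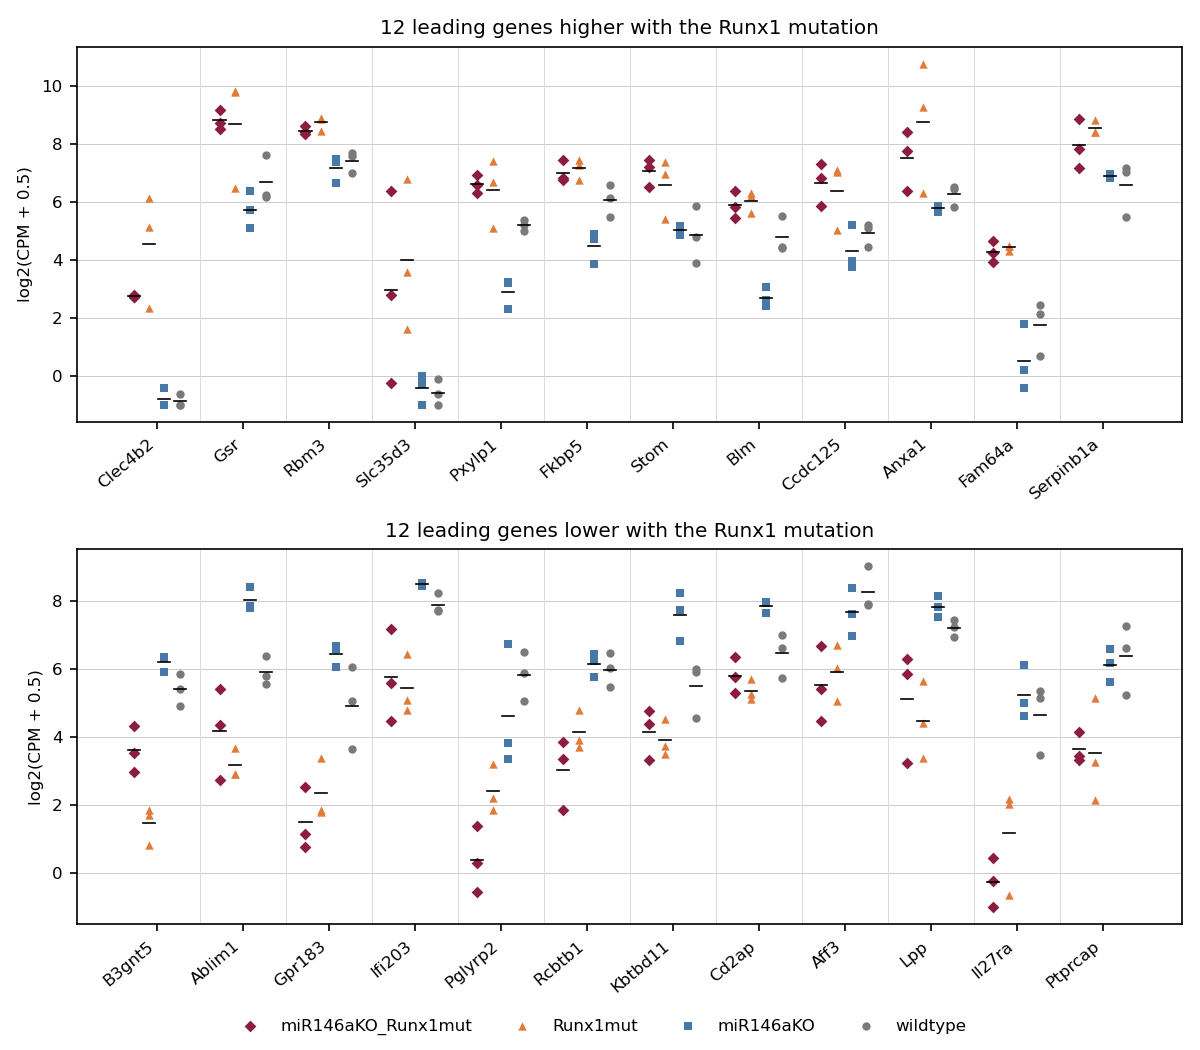
Levels of the 24 leading genes in each library, as log2(CPM + 0.5), with 3 points and a bar at the mean of the points for each genotype. Among the lower genes 10 of 12 have all 6 mutant libraries below the other 6, among the higher genes 4 of 12 have all 6 above.

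Beyond the called genes, the genes of smallest p in each direction completed a set of 12 higher and 12 lower genes, of which 21 did not pass the test (edgeR adjusted p 0.118 to 0.181). All 24 had the same direction in both miR-146a backgrounds, a consequence in part of choosing them by the pooled p. All 6 mutant libraries lay below all 6 others in 10 of the 12 lower genes and above them in 4 of the 12 higher genes. Over all tested genes 83 (0.651%) were separated in this way, 41 above (0.322%) and 42 below (0.33%).

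Several of the lower genes are known from lymphocytes. Gpr183, an oxysterol receptor that guides the migration of B cells and dendritic cells, had 1.21 to 9.92 CPM (median 3.05) in mutant and 11.96 to 102 CPM (median 66.0) in other libraries. The highest mutant library was thus just under the lowest of the others, a wildtype library, and the log2 difference was -3.87 (SE 0.67, edgeR adjusted p = 0.118). Il27ra, a chain of the interleukin-27 receptor, had 0 to 3.98 CPM (median 0.608) in mutant and 10.5 to 69.5 CPM (median 33.0) in other libraries. Ptprcap, a partner of the phosphatase CD45 in lymphocytes, had 3.97 to 35.1 CPM in mutant and 37.1 to 152 CPM in other libraries. Neither overlapped between the groups, with differences of -4.87 (SE 0.99) for Il27ra and -2.56 (SE 0.52) for Ptprcap on the log2 scale. Aff3, a nuclear protein of the AF4 family found in lymphoid cells, had 21.5 to 103 CPM in mutant and 126 to 519 CPM in other libraries. These 4 genes were lower than wildtype in Runx1mut too. B lineage levels were 0.61, 0.13 and 3.44 in Runx1mut and 0.38, 2.41 and 1.68 in wildtype. The part of B cells or of other cell types in the difference was not tested.

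Bach2 was not among the 24 and was chosen after its values were seen, as a repressor that acts in B and T cell fate. It had 1.38 to 22.9 CPM (median 7.40) in mutant and 35.1 to 369 CPM (median 65.3) in other libraries (log2 difference -3.60, SE 0.75, edgeR adjusted p = 0.159). Lsp1, a leukocyte actin-binding protein chosen in the same way, had 3.84 to 54.8 CPM in mutant and 69.5 to 409.6 CPM in other libraries. Both groups of libraries stood apart without overlap for each gene.

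The rest of the lower genes have varied roles. Ifi203, an interferon-inducible nuclear protein, had 21.9 to 146 CPM (median 40.7) in mutant and 209 to 366 CPM (median 325) in other libraries, a log2 difference of -2.31 (SE 0.42, edgeR adjusted p = 0.118). It overlaps its relative Mndal on the same strand, so reads may be shared. Pglyrp2, which cleaves bacterial peptidoglycan, had 0.172 to 8.82 CPM in mutant and 9.74 to 106 CPM in other libraries. Lpp, a LIM protein of focal adhesions, had 8.96 to 77.6 CPM in mutant and 122 to 283 CPM in other libraries, and Rcbtb1 had 3.10 to 27.4 CPM in mutant and 43.5 to 88.0 CPM in other libraries. Kbtbd11 and Cd2ap, an adaptor between membrane receptors and actin, overlapped by 1 or more libraries, with 34.0 to 81.6 CPM in mutant and 53.4 to 249 CPM in other libraries for Cd2ap.

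Among the higher genes, Rbm3, an RNA-binding protein induced by cold, showed the tightest values. It had 319 to 476 CPM (median 369) in mutant and 98.3 to 202 CPM (median 171) in other libraries, with no overlap. The log2 difference was 1.28 (SE 0.23, edgeR adjusted p = 0.118), and Rbm3os overlaps it on the other strand. Fkbp5, a co-chaperone of the glucocorticoid receptor, had 105 to 172 CPM (median 132) in mutant and 13.8 to 94.0 CPM (median 36.3) in other libraries. Fam64a, a gene of dividing cells, had 14.5 to 24.2 CPM in mutant and 0.242 to 4.84 CPM in other libraries, also without overlap. Blm, a DNA helicase of recombination repair, had 43.2 to 82.0 CPM in mutant and 4.74 to 44.9 CPM in other libraries, where 1 wildtype library reached into the mutant range.

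The remaining higher genes have varied roles. Gsr, glutathione reductase, had 88.1 to 906 CPM (median 496) in mutant and 33.8 to 196 CPM (median 72.5) in other libraries, a log2 difference of 2.73 (SE 0.49, edgeR adjusted p = 0.118). A042 alone of the mutant libraries lay within the range of the others. Gsr was called in 1 of 12 fits without 1 library (edgeR adjusted p 0.00553 to 0.248). It was also called without A031 and A042 (adjusted p = 0.0107). That fit leaves out the overlapping library, in a pair chosen after seeing the data, which favours a call. Anxa1, annexin A1, a calcium-binding protein that limits neutrophil recruitment, had 77.8 to 1712 CPM in mutant and 49.2 to 90.4 CPM in other libraries. Serpinb1a, an inhibitor of neutrophil proteases, had 141 to 462 CPM in mutant and 44.1 to 142 CPM in other libraries. Slc35d3, a transporter needed for platelet dense granules, had 0.345 to 109.7 CPM in mutant and 0 to 0.487 CPM in other libraries, with A031 at 81.2 CPM and A042 at 109.7 CPM far above the remaining mutant libraries. Stom, Ccdc125 and Pxylp1 overlapped between the groups and had edgeR adjusted p of 0.159, 0.173 and 0.142.

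Some genes outside the 24 were separated and were chosen after their values were seen. Siglecf, a sialic acid receptor known from eosinophils, had 9.82 to 53.3 CPM in mutant and 0 to 4.56 CPM in other libraries (log2 difference 4.41, SE 1.06). Alox5ap, which supports leukotriene synthesis, had 153 to 298 CPM in mutant and 30.2 to 142 CPM in other libraries. Cd63, a tetraspanin of granule membranes, had 216 to 385 CPM in mutant and 54.7 to 197 CPM in other libraries. The edgeR adjusted p was 0.219 for Siglecf and 0.272 for Alox5ap and Cd63.

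Whether the mutation acted alike with and without miR-146a was examined in a model of the 4 genotypes, where the 2 within-background comparisons share no library. Runx1mut against wildtype gave 0 called genes by edgeR and 704 (5.52%) with an unadjusted p below 0.05, while DESeq2 called 117. miR146aKO_Runx1mut against miR146aKO gave 2 called genes (0.0157%), with 1882 (14.8%) at an unadjusted p under 0.05, while DESeq2 called 645. The direction was the same in both backgrounds for 6818 genes (53.5% of 12744), and Spearman's rho of the log2 fold changes was 0.0801 across genes, which are not independent replicates. Of 168 genes at an unadjusted p under 0.05 in both backgrounds, 103 (61.3%) had the same direction.

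**Figure D2:**
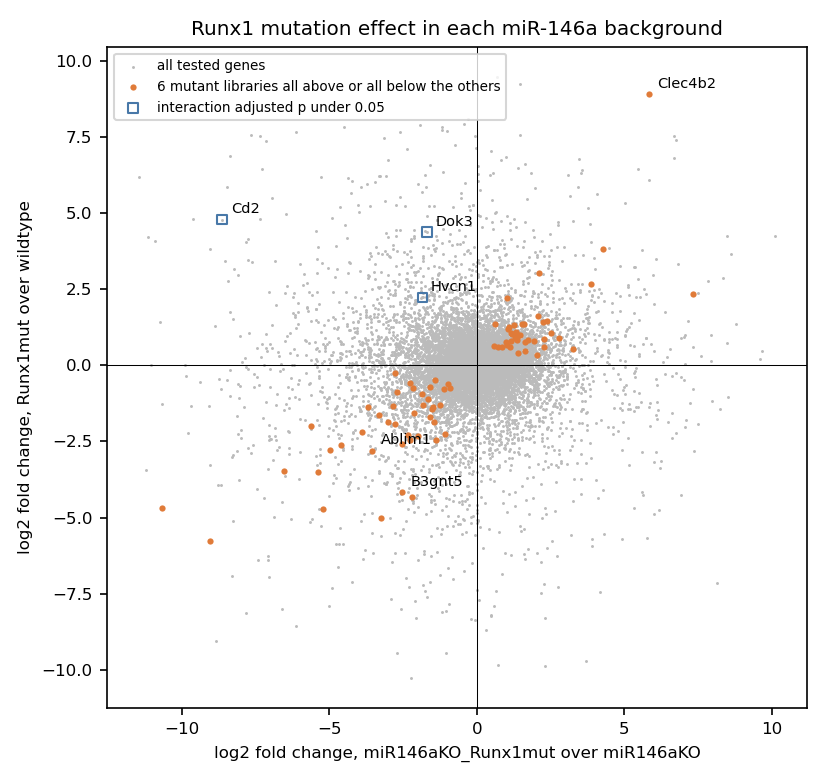
Log2 fold change of each tested gene with the Runx1 mutation, without miR-146a on the x axis and with miR-146a intact on the y axis, with genes separated over all 12 libraries in orange and genes with an interaction in blue squares. Ablim1 and B3gnt5 lie in the quadrant lower in both backgrounds, Clec4b2 in the quadrant higher in both, and Cd2, Dok3 and Hvcn1 in the quadrant with opposite directions.

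The 2 genes called without miR-146a were Cd2 and Ext2, both chosen for mention after their values were seen. Cd2, an adhesion receptor of lymphocytes, had 0.172, 0.178 and 0.242 CPM in miR146aKO_Runx1mut against 95.5, 78.4 and 82.8 CPM in miR146aKO. The miR146aKO_Runx1mut values are 1 count in each library, or 3 counts against 966 in miR146aKO. The level in miR146aKO was 439 times that in miR146aKO_Runx1mut after scaling (exact 95% counting interval 150 to 2134), and Cd2 fell there (edgeR adjusted p = 0.00756). Ext2, an enzyme of heparan sulphate synthesis that overlaps Alx4 on the other strand, had 34.1, 56.7 and 15.8 CPM in miR146aKO_Runx1mut against 473, 649 and 405 CPM in miR146aKO, and fell by 3.84 (SE 0.48, adjusted p = 0.00756). With miR-146a intact, Cd2 had 1.28, 0.996 and 3.94 CPM in Runx1mut against 0, 0 and 0.142 CPM in wildtype, which is 39 counts against 1 count. Without A001 neither Cd2 nor Ext2 was called (adjusted p = 0.100), and each was called in the 11 other fits that left out 1 library.

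The interaction was called for 3 genes (0.0235%), with 1206 (9.46%) at an unadjusted p under 0.05, while DESeq2 called 168. Besides Cd2 (edgeR adjusted p = 0.00202) these were Dok3, a docking protein that dampens immune receptor signals (adjusted p = 0.0257), and Hvcn1, a proton channel of leukocytes (adjusted p = 0.0457). When 1 library was left out, the interaction stayed called for Cd2 in 12 of 12 fits, for Dok3 in 1 (without A042, adjusted p 0.00503 to 0.132 over the 12) and for Hvcn1 in 0 (adjusted p 0.0514 to 0.250). Dok3 had 20.2, 24.7 and 32.7 CPM in miR146aKO_Runx1mut against 98.9, 69.4 and 82.5 CPM in miR146aKO. With miR-146a intact it had 117, 28.3 and 62.4 CPM in Runx1mut against 1.92, 3.997 and 3.99 CPM in wildtype. Hvcn1 had 35.4 to 79.1 CPM in both mutant genotypes, against 143 to 259 CPM in miR146aKO and 10.4 to 18.7 CPM in wildtype. For Dok3 and Hvcn1 every mutant library stood above every wildtype library, and for all 3 genes every miR146aKO_Runx1mut library stood below every miR146aKO library. Among the 24 leading genes 0 had a called interaction. With 0.0235% called over all tested genes, and a choice by pooled p, this 0 does not show that they act alike in both backgrounds.

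Gene lists are described by their tested members, beside the median log2 fold change of -0.00042 over all tested genes. No member of any list was called in the pooled test, so the counts below give the side on which members lay. Cd2, called above without miR-146a and for the interaction, is a member of the T and NK list. Members under the low-count filter were not tested and are not covered. A list level is the mean log2 CPM of the tested members in a library.

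**Figure D3:**
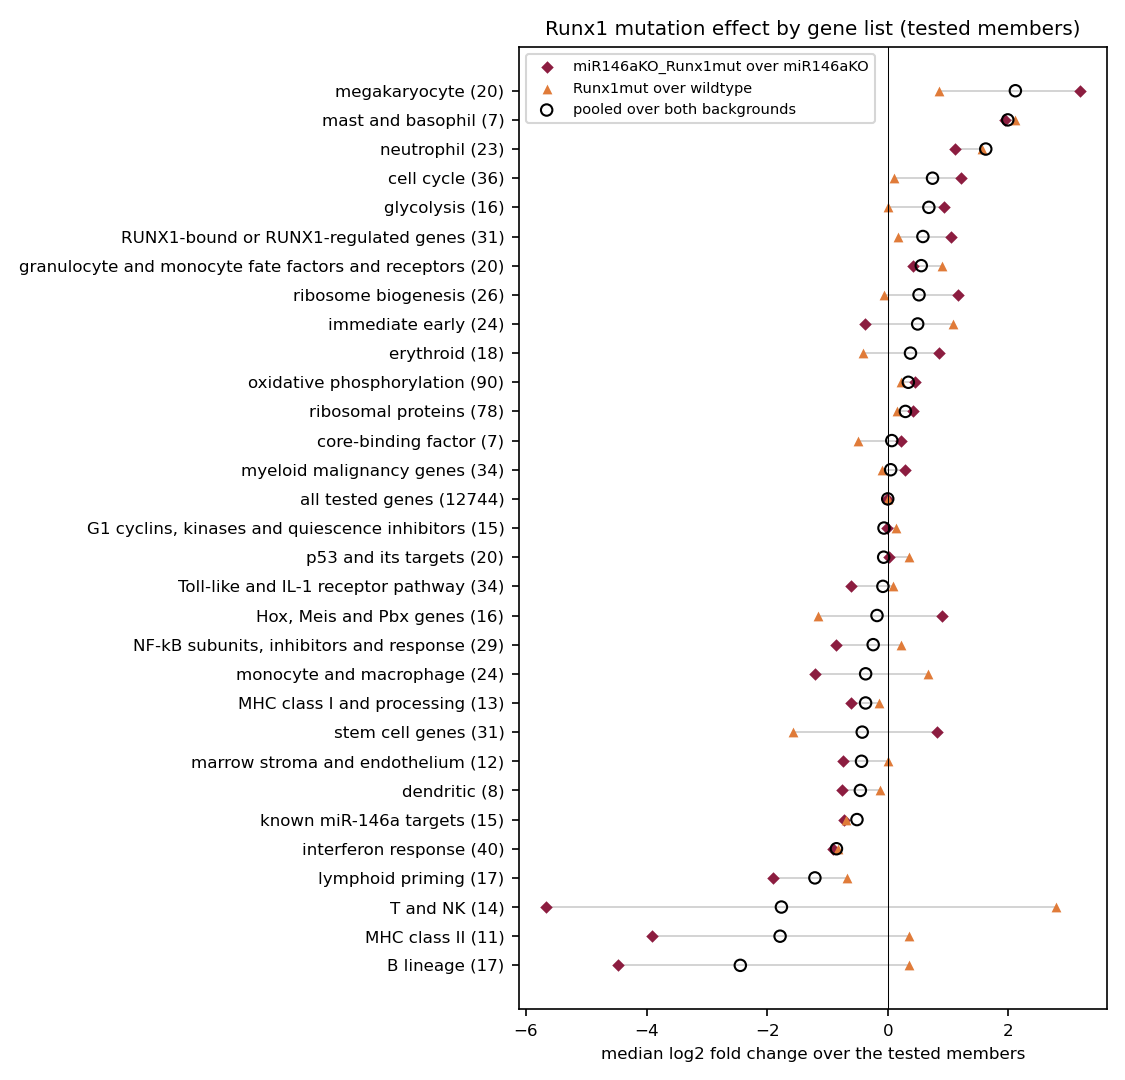
Median log2 fold change of the tested members of each gene list (number of members in brackets), pooled over both backgrounds (circles), for miR146aKO_Runx1mut over miR146aKO (diamonds) and for Runx1mut over wildtype (triangles). Interferon response and mast and basophil genes have nearly the same median in both backgrounds. T and NK, B lineage, MHC class II, stem cell and monocyte and macrophage genes, among other lists, have medians of opposite sign.

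RUNX1-bound or RUNX1-regulated genes and their factor complex come first. Of 31 tested genes that RUNX1 is known to bind or regulate (34 listed), 20 were higher and 11 lower in mutant libraries, with a median of 0.58. At an unadjusted p under 0.05, 5 were higher and 5 lower, where 4.96% and 4.89% of all tested genes were. The median was -0.01 without A031, and -0.23 without A031 and A042, so the side of this list rests on A031. Gfi1, a repressor that drives granulocyte fate, had 28.2 to 448 CPM (median 227) in mutant and 20.3 to 70.8 CPM (median 39.4) in other libraries (log2 difference 2.33, SE 0.55, edgeR adjusted p = 0.216). Itga2b, the platelet integrin chain CD41, had 4.48 to 1112 CPM (median 329) in mutant and 2.18 to 94.95 CPM (median 31.6) in other libraries. Csf3r, the G-CSF receptor, had 76.0 to 249.8 CPM in mutant and 39.2 to 105 CPM in other libraries. Bcl2, which blocks apoptosis, had 61.6 to 197 CPM (median 83.8) in mutant and 246 to 715 CPM (median 292) in other libraries, the only separated member (log2 difference -1.66, SE 0.37, edgeR adjusted p = 0.181).

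Neutrophil, mast and basophil and megakaryocyte lists lay mostly on the higher side, and the monocyte and macrophage list did not. Of 24 tested monocyte and macrophage genes (25 listed), 8 were higher and 16 lower, with a median of -0.37. The backgrounds differed in side. Without miR-146a 5 were higher and 19 lower (median -1.21), and with it 16 were higher and 8 lower (median 0.66). The pooled median was between -0.80 and -0.07 without any 1 library. Without A031 and A042 it was 0.10, with 15 higher and 10 lower. Of 23 tested neutrophil genes (25 listed), 20 were higher and 3 lower, with a median of 1.63, and 9 were higher at an unadjusted p under 0.05 (6 without A021 or A058). Their level was 6.65, 5.77 and 7.67 in miR146aKO_Runx1mut and 8.26, 4.14 and 7.07 in Runx1mut, against 6.06, 6.10 and 4.57 in miR146aKO and 4.98, 5.91 and 5.24 in wildtype. The groups overlapped, and A042 was the lowest of the 12. Single genes spread as widely. Ms4a3, a gene of granulocyte and monocyte precursors, had 50.6 to 1158 CPM (median 531) in mutant and 3.16 to 383 CPM (median 36.0) in other libraries. Mpo, myeloperoxidase, which was chosen after its values were seen, had 1824 to 48564 CPM in mutant and 108 to 22960.5 CPM in other libraries (edgeR adjusted p = 0.562). Csf2rb, the shared receptor chain for GM-CSF, IL-3 and IL-5 from the list of granulocyte and monocyte fate genes, had 249 to 621 CPM (median 327) in mutant and 23.3 to 205 CPM (median 135) in other libraries without overlap (log2 difference 1.61, SE 0.45, edgeR adjusted p = 0.272).

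All 7 tested mast and basophil genes were higher (14 listed), with a median of 1.99 and medians of 1.94 without miR-146a and 2.11 with it. Without A042 the pooled median was 1.21. Hdc, the enzyme that makes histamine, had 32.7 to 348 CPM (median 94.2) in mutant and 3.01 to 33.2 CPM (median 4.49) in other libraries, with 1 miR146aKO library at 33.2 CPM inside the mutant range (log2 difference 3.18, SE 0.83, edgeR adjusted p = 0.270). Cpa3, a mast cell protease, had 3.88 to 1419 CPM in mutant and 0.632 to 102 CPM in other libraries, with A042 the highest and A031 next. Of 20 tested megakaryocyte genes (23 listed), 18 were higher and 2 lower, with a median of 2.12. It was made of 3.19 without miR-146a and 0.85 with it, where 12 genes were higher and 8 lower. Their level ran from 0.89 to 6.38 in mutant and from 2.01 to 5.65 in other libraries, so the mutant libraries held both the lowest and the highest. Gp5, a platelet glycoprotein, had 0, 52.6 and 47.04 CPM in miR146aKO_Runx1mut and 0.284, 56.1 and 74.3 CPM in Runx1mut, against 0 to 13.5 CPM in other libraries. A001 and A021 were low for this list, and the other 4 mutant libraries were high.

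Lymphoid lists lay mostly on the lower side. Of 17 lymphoid priming genes, all tested, 15 were lower and 2 higher, with a median of -1.21, and the median was -0.46, -0.56 or -0.64 without A001, A031 or A051. Their level was 3.45 ± 0.49 in mutant and 4.70 ± 1.19 in other libraries (SD, n = 6 each). The mutant range of 2.52 to 3.89 overlapped wildtype at 2.87 to 4.60 and lay below miR146aKO at 5.36 to 5.89. Dntt, the template-independent DNA polymerase of lymphoid precursors, had 0.345 to 4.82 CPM (median 2.86) in mutant and 0.666 to 296 CPM (median 43.9) in other libraries (log2 difference -5.45, SE 1.22, edgeR adjusted p = 0.181). Mef2c, a transcription factor of lymphoid fate, had 49.8 to 127 CPM in mutant and 128 to 372 CPM in other libraries, without overlap (edgeR adjusted p = 0.243). The lymphoid priming level was highest in the miR146aKO libraries, which also had the highest B lineage level, and the part of B cells in this difference was not tested.

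For lists of mature lymphoid cells the 2 backgrounds differed in side. Of 17 tested B lineage genes 16 were lower, with a median of -2.45, made of -4.48 without miR-146a and 0.35 with it. Of 14 tested T and NK genes 13 were lower, with a median of -1.76, made of -5.67 without miR-146a and 2.79 with it. The T and NK level was 0.74 to 1.12 in miR146aKO_Runx1mut, 0.89 to 3.03 in Runx1mut and 0.96 to 1.51 in wildtype. In miR146aKO it was 6.63 in A047, 3.21 in A150 and 2.31 in A151. At such low levels fold changes rest on few counts, and a gene can pass the low-count filter through a single genotype. Of 11 MHC class II genes 10 were lower, with a median of -1.79, made of -3.91 without miR-146a and 0.35 with it. The B lineage median was -1.50, -1.56 or -1.61 without A001, A031 or A051 and -3.79 without A058, and the MHC class II median was -1.13 without A001. The T and NK median was between -0.24 and -0.01 without any one of A001, A031, A051 or A047, between -4.33 and -4.02 without any one of the wildtype libraries, and 0.27 without both A031 and A042. Vpreb3, part of the B cell precursor receptor complex, had 0 to 0.855 CPM in mutant libraries, against 9.17, 47.4 and 57.4 CPM in miR146aKO and 0.137, 0.222 and 19.4 CPM in wildtype. Klrb1c, the NK cell receptor NK1.1, had 0 to 0.855 CPM (median 0.0711) in mutant and 0 to 71.1 CPM (median 17.01) in other libraries. It was at 31.6, 2.42 and 0 CPM in miR146aKO and at 55.4, 71.1 and 2.28 CPM in wildtype (log2 difference -6.99, SE 1.46, edgeR adjusted p = 0.159).

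**Figure D4:**
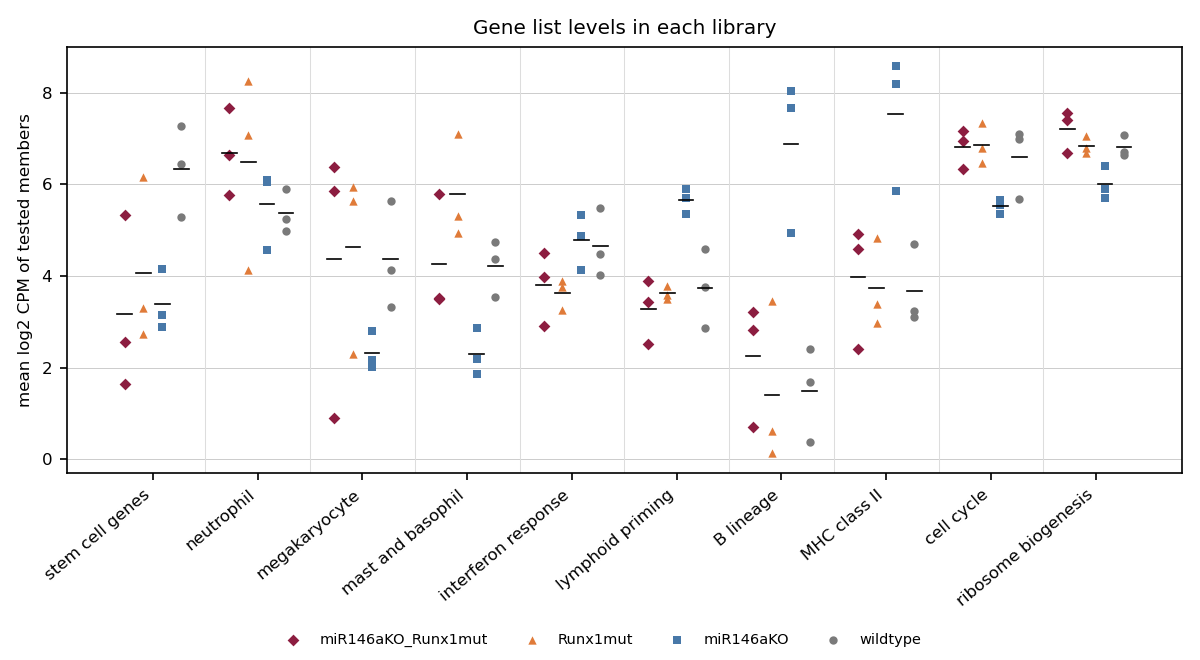
Level of 10 gene lists in each library, as the mean log2 CPM of the tested members, with a bar at the mean of the 3 libraries of each genotype. The miR146aKO libraries are highest for B lineage and MHC class II genes and lowest for cell cycle genes, and mutant libraries overlap the others in every list drawn.

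Interferon response genes gave similar values in both backgrounds. Of 40 tested genes (41 listed) 35 were lower and 5 higher, with a median of -0.85, made of -0.90 without miR-146a and -0.83 with it. At an unadjusted p under 0.05, 10 were lower and 0 higher, where 4.89% of all tested genes were lower. That count was 6 without A021, 3 without A015 and 5 with a Y-linked covariate. The level was 3.71 ± 0.57 in mutant and 4.72 ± 0.62 in other libraries (SD, n = 6 each), and the ranges of 2.90 to 4.50 and 4.02 to 5.49 overlapped. Irf1, a transcription factor induced by interferon gamma, had 14.8 to 37.7 CPM (median 21.96) in mutant and 48.6 to 123 CPM (median 70.4) in other libraries, without overlap (log2 difference -1.64, SE 0.35, edgeR adjusted p = 0.159). Ddx58, the RNA sensor RIG-I, had 23.3 to 52.4 CPM in mutant and 45.1 to 167 CPM in other libraries. Pml, an interferon-induced nuclear body protein chosen after its values were seen, had 40.3 to 92.4 CPM in mutant and 95.5 to 278 CPM in other libraries, without overlap.

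Stem cell genes lay on both sides. Of 31 genes 18 were lower and 13 higher, with a median of -0.42, made of 0.82 without miR-146a and -1.58 with it. The median was 0.17 without A021, 0.13 without A058, -0.21 without A015, -0.77 without A150 and -1.58 without A031. Without A031 and A042 together, a pair chosen after seeing the data, 28 genes were lower and 3 higher, with a median of -2.05. Of the mutant libraries these had the highest levels of stem cell genes. Leaving them out therefore moves the list towards the lower side by construction. In that fit 4 members were called, among 12696 tested genes, and the count over all genes is given with the processing alternatives. With a Y-linked covariate the median was 0.01. The level was 1.65, 5.33 and 2.55 in miR146aKO_Runx1mut and 2.74, 6.16 and 3.31 in Runx1mut, against 4.16, 2.88 and 3.14 in miR146aKO and 7.27, 6.44 and 5.28 in wildtype. A031 and A042 thus stood above the other mutant libraries, and wildtype was high throughout. Mllt3, a chromatin reader that maintains human blood stem cells, had 4.97 to 78.7 CPM (median 26.1) in mutant and 55.9 to 369.8 CPM (median 93.2) in other libraries (log2 difference -1.87, SE 0.66, edgeR adjusted p = 0.380). Nkx2-3, a homeobox gene, had 0 to 4.55 CPM in mutant and 0 to 40.8 CPM in other libraries. Cd34 and Flt3, which mark progenitors, had log2 differences of 0.86 (SE 0.62) and 0.08 (SE 0.96), and the side of Flt3 changed with the setting.

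Cell cycle and ribosome lists lay on the higher side, with larger medians without miR-146a than with it. Of 36 cell cycle genes 34 were higher and 2 lower, with a median of 0.74, made of 1.21 without miR-146a and 0.10 with it. Their level was 6.33 to 7.16 in miR146aKO_Runx1mut and 6.46 to 7.35 in Runx1mut, against 5.36 to 5.67 in miR146aKO and 5.68 to 7.11 in wildtype. Aurka, a mitotic kinase, had 20.3 to 204 CPM (median 80.7) in mutant and 22.8 to 34.9 CPM (median 26.3) in other libraries (edgeR adjusted p = 0.272). Cenpe, a kinetochore motor, had 196 to 667 CPM in mutant and 47.2 to 291 CPM in other libraries. The separate list of G1 cyclins, kinases and quiescence inhibitors went neither way, with 7 of 15 tested genes higher, 8 lower and a median of -0.06. Its member Cdk6, a kinase of G1 progression, had 237 to 642 CPM in mutant and 27.02 to 458 CPM in other libraries. Of the 36 cell cycle list members 0 were separated. The mitotic genes Bora, Knstrn and Cdc25c lie outside that list. They were chosen, after their values were seen, from the 83 separated genes (0.651% of those tested). Knstrn had 71.8 to 119 CPM in mutant and 1.90 to 63.7 CPM in other libraries. All 26 ribosome biogenesis genes were higher, with a median of 0.52, made of 1.17 without miR-146a and -0.06 with it. Of 78 tested ribosomal protein genes 76 were higher, with a median of 0.29, made of 0.42 without miR-146a and 0.15 with it.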

How the data were processed

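The counts per gene symbol are those the authors deposited, in 1 column for each of 12 libraries. Following the labels' protocols, RNA of sorted cells was amplified with the NuGEN Ovation v2 system and made into Nextera XT libraries, which do not keep strand. Per the submitters' processing notes, reads were processed with HISAT2 2.0.4 and featureCounts 1.5.2, FastQC 0.11.2 was run, and the build was mm10. The sources used here name neither the strand setting nor the handling of reads with several matches. Group names came from a deposited table that gives no replicate numbers.

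The main test was edgeR 4.0.16 in R 4.3.3 (quasi-likelihood, TMM scaling, default low-count filter) with terms for miR-146a status and Runx1 mutation over 12 libraries, with 9 residual degrees of freedom and a common biological coefficient of variation of 0.845. Calls required a p below 0.05 after Benjamini-Hochberg adjustment over 12744 genes. Within-background effects and the interaction came from a model of the 4 genotypes. Levels are CPM with TMM factors, and list levels use a prior count of 2. The script was run on simulated data with a smaller spread than these libraries and with effects in well-expressed genes only. That run checks the code and cannot show power or false calls at the spread found here. Alternatives used limma 3.58.1 (voom), DESeq2 1.42.0, other scalings and filters, no miR-146a covariate, a Y-linked covariate and each library left out.

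Named genes were up to 12 per direction, called or else of smallest p, leaving out predicted gene models and genes with mean log2 CPM under 2, up to 4 members of smallest p per list, and Runx1, Cbfb, Mir146, Kit, Ly6a, Cd34 and Flt3. The comparison and the lists were chosen with earlier results of these data known. Of 24421 symbols, 23376 (95.7%) matched GENCODE GRCm38, which gave coordinates and overlaps. Amplified reads are not independent molecules.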

Additional observations from a re-analysis of the deposited data

Results flagged for a closer look

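Among the sets of 6 libraries with or without the mutation, 120 were examined for a library far from the rest of its set (by Dixon's critical value), and 4 were marked, where chance marks about 1 in 20. Serpinb1a was at 5.47 log2 CPM in A015 of wildtype, against 6.81 in the next of the 6 libraries without the mutation. The lymphoid priming level was 2.52 in A001 of miR146aKO_Runx1mut, with the next mutant library at 3.42. The level of marrow stroma and endothelium genes was 4.25 in A031 of miR146aKO_Runx1mut, with the next mutant library at 1.48. Ribosomal protein genes were at 9.18 in A058 of Runx1mut, with the next mutant library at 9.05.

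The Runx1 mutation effect differed between the miR-146a backgrounds for 3 genes by the edgeR interaction test. The log2 fold change without miR-146a minus that with it was -13.41 for Cd2 (SE 1.40, adjusted p = 0.00202), -6.08 for Dok3 (SE 0.84, adjusted p = 0.0257) and -4.07 for Hvcn1 (SE 0.61, adjusted p = 0.0457). Cd2 had 1 count in each miR146aKO_Runx1mut library and 1 count in all of wildtype, so neither its fitted value nor its SE has a firm size. With 1 library left out, the test called Cd2 in 12 of 12 fits, Dok3 in 1 and Hvcn1 in 0.

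Mir146 had 14 counts in A031, a library labelled as lacking miR-146a, and was outside the tested genes. The same library held the highest stroma and endothelium level among mutant libraries, and it was kept under its label.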

How the results depend on the processing

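The count of called genes for the Runx1 mutation pooled over miR-146a backgrounds, 3 by edgeR, depended on the tool and on single libraries. DESeq2 called 243 (90 higher, 153 lower), limma-voom 10, edgeR without a count filter 82 and the mean of the 2 within-background effects 12. By edgeR 0 genes were called without the miR-146a covariate (1355 at an unadjusted p under 0.05) and 0 with a Y-linked covariate (1502), and the count was 2 to 3 under the other scalings, the stricter filter and robust dispersion. Leaving out 1 library gave 0 to 11, with 0 without A021, A047, A150, A151, A015 or A053, 1 without A001, A051 or A040, 2 without A031, 4 without A058 and 11 without A042. These fits test more genes, since the filter follows the smallest genotype. Without A031 and A042 together, chosen after seeing the data, the count was 34. The miR-intact comparison gave 0, against 117 by DESeq2 and 162 without a filter (0 to 2 with 1 library out, 2 without A042). The comparison without miR-146a gave 2, against 645 and 549 (0 to 7, with 0 without A001, 7 without A051 or A042, 6 without A021 and 5 without A015). The interaction gave 3, against 168 by DESeq2 (1 to 6, with 6 without A042, 2 without A051 and 1 without any of the other 10 libraries). The causes were not tested.

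Of 718 values for 30 genes under the alternatives, 605 kept side and call, 64 newly passed, 37 no longer passed and 12 changed side. The side changed for Cd34 (-0.26 without A031 and A042) and for Flt3 (-0.57 by voom, -0.00326 with total counts, -0.31 with a Y-linked covariate, -0.37 to 1.07 over fits without 1 library, below 0 in 7 of 12, -0.38 without A031 and A042), neither called. Of 543 list values (medians, and level differences at a prior count of 0.5), 535 moved by less than a set spread. That spread was the SD of the list level over the 6 libraries without the mutation, which includes the difference between miR146aKO and wildtype. It was wide for some lists, at 3.21 for B lineage genes. A median could thus change side without counting as moved, as for stem cell genes (-0.42, and 0.17 without A021). The count of 535 therefore says little about how stable the medians were. Other scalings shifted the median of all genes to -0.061 at most. No paired analysis was possible because the columns carry no replicate number. With 3540043 to 7026393 counts per library, genes at a few counts per library, such as Clec4b2 without the mutation, carry wide counting error.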

Other observations

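Metabolic and signalling lists are given here. Of 90 tested oxidative phosphorylation genes 75 were higher in mutant libraries and 15 lower, with a median log2 fold change of 0.34, made of 0.45 without miR-146a and 0.22 with it. Ndufa4, a mitochondrial respiratory chain protein, had 155 to 404 CPM (median 313) in mutant and 90.5 to 191 CPM (median 132) in other libraries (edgeR adjusted p = 0.253). Of 16 glycolysis genes 12 were higher, with a median of 0.68 (0.45 without A001), and Gpi1, which converts glucose 6-phosphate to fructose 6-phosphate, had 285 to 1029.6 CPM in mutant and 164 to 595 CPM in other libraries. Immediate early genes, which respond to signals within minutes, were higher in 20 of 24, with medians of -0.38 without miR-146a and 1.08 with it, and this count was 15 without A042 or A053 and 16 without A040.

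Of 29 tested NF-kB genes 20 were lower and 9 higher, with a median of -0.24 (-0.41 without A042). The NF-kB median was -0.85 without miR-146a and 0.22 with it, and 2 members went opposite ways. Nfkbie, an inhibitor of NF-kB, had 8.80 to 21.3 CPM in mutant and 21.8 to 114 CPM in other libraries, without overlap (edgeR adjusted p = 0.270). Nlrp3, the sensor of an inflammasome, had 0.427 to 10.3 CPM in mutant and 0 to 1.69 CPM in other libraries (adjusted p = 0.294). Of 15 tested miR-146a target genes 10 were lower, with a median of -0.51. It was -0.27 without A042, -0.30 without A053 and -0.13 without A031 and A042. Of 34 tested genes mutated in myeloid malignancy 19 were higher and 15 lower, with a median of 0.05. That median was below 0 with total counts as library sizes or median-of-ratios size factors, and it was -0.004 without A015. Srsf2, a splicing factor, had 637 to 1054 CPM in mutant and 430.4 to 676 CPM in other libraries. Kmt2a, a histone methyltransferase, had 247 to 611 CPM in mutant and 499 to 906 CPM in other libraries. Of 20 tested granulocyte and monocyte fate genes 14 were higher, with a median of 0.56. MHC class I and antigen processing genes were lower in 11 of 13 tested members, with a median of -0.37, which was -0.57 without A040 or A042 and -0.74 without A031 and A042. Dendritic cell genes were lower in 6 of 8, marrow stroma and endothelium genes in 8 of 12 and Hox, Meis and Pbx genes in 11 of 16. The pooled Hox median changed side without A021, A058 or A015. It was 0.90 without miR-146a and -1.15 with it. Besides the myeloid malignancy list, medians within 0.1 of 0 were found for core-binding factor genes, Toll-like and IL-1 receptor genes, p53 genes and G1 genes. Each of these 4 changed side with a library left out.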
